A study of Mus musculus with 18 samples.

Results

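The 9 small nucleolar RNA (snoRNA) host genes Gas5, Snhg1, Snhg3, Snhg4, Snhg5, Snhg6, Snhg8, Snhg12 and Snhg15 were followed through 18 RNA-seq libraries of mouse bone marrow-derived macrophages (BMDMs). They were chosen by symbol and matched to Ensembl gene identifiers on GRCm38, and are 9 of the 49315 counted genes. The symbols of the others are in the GENCODE M21 annotation, and Snhg4 was found through the exon coordinates of its RefSeq transcript. The libraries form 6 groups of 3 biological replicates. The labels call the genotypes WT and HDAC3 KO, where the study's text has HDAC3 f/f and M-HDAC3-/-. In M-HDAC3-/- mice a Cre recombinase driven from the Lyz2 locus, which is active in myeloid cells, acts on a floxed Hdac3, and the WT label stands for the floxed gene without that deletion. Each genotype was left untreated, or met non-apoptotic cells (NACs) or apoptotic cells (ACs) for 45 min and was then kept for 5 h after the unengulfed cells had been washed off. Both kinds of added cell were K562, a human leukemia line, and the ACs had been exposed to UV for 15 min.

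Host genes of this kind are transcribed as long noncoding RNAs whose introns carry snoRNAs. Box C/D snoRNAs guide methylation, and box H/ACA snoRNAs guide pseudouridylation, mostly of ribosomal RNA. The spliced host RNA left after the snoRNAs have been cut out often begins with a run of pyrimidines like that of ribosomal protein mRNAs and is often a substrate of nonsense-mediated decay, and Gas5 was named for its accumulation in growth-arrested cells.

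The start sites are shown because genes of this class are known for pyrimidine runs there. The RefSeq table (GRCm38.p6) held 8 start sites of 7 members, and none was used for Snhg4 or Snhg6. The windows below run 5′ to 3′ on the gene's strand from 40 bases before the annotated start to 20 bases of transcript, and the capitals mark a TATA-like match (the letters TATAA, or the letters TATATA, or the letters TTTATA, searched on the transcribed strand in the 50 bases before the start) and the longest run of C and T within 20 bases of the start where it has 6 or more bases. The windows are chr1:161035126-161035185 (+) for Gas5, chr19:8723447-8723506 (+) for Snhg1, chr9:88522878-88522937 (-) for Snhg5, chr3:123508317-123508376 (-) for Snhg8 and chr4:132308638-132308697 (+) for Snhg12.
Gas5: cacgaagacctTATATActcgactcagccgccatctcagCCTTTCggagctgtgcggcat
Snhg1: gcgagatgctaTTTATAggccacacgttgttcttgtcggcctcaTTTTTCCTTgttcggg
Snhg5: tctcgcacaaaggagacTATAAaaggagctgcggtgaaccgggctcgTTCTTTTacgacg
Snhg8: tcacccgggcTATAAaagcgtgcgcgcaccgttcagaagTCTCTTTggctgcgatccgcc
Snhg12: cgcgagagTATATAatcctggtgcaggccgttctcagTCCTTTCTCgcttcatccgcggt

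These 5 start sites held both features. A TATA-like match was found at 5 of the 8 start sites, against 6.02% of the 32851 start sites in the table. A pyrimidine run of 6 or more bases was found at the same number, against 38.1% of all start sites, and a run of 8 or more at 2 (Snhg1 and Snhg12), against 16.5%. The windows of Snhg3 and Snhg15 and the other start of Gas5 held neither feature. The E-box CACGTG, which reads alike on both strands, was present in the table's promoter window of Snhg15 alone among the 8, against 7.15% of all. Snhg8 and Snhg5, the members called in opposite directions in the interaction tested below, both had a 7-base run and the same TATA-like letters. Their runs lay at different places, since that of Snhg8 began at -1 from the annotated start and spanned it. The run of Snhg5 began at 7, within the transcript, and that of Snhg1 at 4.

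The members carried 32 annotated snoRNA genes, 10 in Gas5, 8 in Snhg1, 5 in Snhg12, 2 each in Snhg3, Snhg4 and Snhg5, and 1 each in Snhg6, Snhg8 and Snhg15. The snoRNAs of Snhg8 and Snhg5 are shown because the measured differences turned on these hosts. The capitals mark the ACA that lies 3 bases before the end of a box H/ACA snoRNA, or the C box (TGATGA, searched in the first 20 bases) and D box (CTGA, searched in the last 15) of a box C/D snoRNA. They lie at chr3:123507937-123508066 (-) for Snora24, chr9:88521529-88521600 (-) for Snord50a and chr9:88521797-88521868 (-) for Snord50b, in introns of their hosts.
Snora24 in Snhg8: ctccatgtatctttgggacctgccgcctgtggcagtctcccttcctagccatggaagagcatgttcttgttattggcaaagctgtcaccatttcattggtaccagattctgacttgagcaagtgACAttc
Snord50a in Snhg5: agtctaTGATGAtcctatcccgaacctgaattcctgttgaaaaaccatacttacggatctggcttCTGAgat
Snord50b in Snhg5: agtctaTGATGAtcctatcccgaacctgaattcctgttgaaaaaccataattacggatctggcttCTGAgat

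Snord50a and Snord50b differ at 1 of their 72 positions. Of 1507 annotated snoRNA genes, 18.3% had ACA at that distance from the end and 20.2% had both box letters in those windows. The snoRNAs themselves were hardly counted. Of the 32, 29 had 0 counts in all 18 libraries, and the others were Snora73a (45 counts in total), Snora16a (28) and Snord87 (8). The exon models of the hosts overlap most of these snoRNA genes, since they include transcripts that retain introns, and the levels below are therefore of host exons and retained introns together.

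Total counts ranged from 4704491 (HDAC3 KO, untreated, replicate 1) to 26421267, with a median of 16477929. Counts over the whole of the targeted gene did not separate the labels, with Hdac3 at 3.38 to 48.7 CPM (counts scaled to a common library size by the TMM method) in the 9 libraries labelled WT and 4.66 to 74.6 CPM in the 9 labelled HDAC3 KO. Groups are therefore named by their labels, and every direction is that of libraries labelled HDAC3 KO relative to libraries labelled WT. The study's methods place the floxed part at a single exon of Hdac3, and counts over the whole gene need not fall when it is deleted, so that these counts do not check the labels. Whether any library's label was exchanged was not tested. The labelled cell type was checked, and all 9 macrophage markers examined, among them Adgre1, Csf1r and Cd68, were detected, with a summed level of 5976 to 19790 CPM over the libraries. Replicates varied beyond counting error, and p-values measure the spread between these libraries.

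Snhg8, the host of Snora24, was the most abundant member per length. Its median over the 18 libraries was 10.9 CPM per kb of exon, and it was above Gas5, the next member, in all 18 libraries, by a median ratio of 3.85. This order rests on exon models of 853 bases for Snhg8 and 3760 for Gas5. In CPM, not divided by length, Gas5 had the higher median (11.6 against 9.31). Gas5 had 3.07 CPM per kb, Snhg3, the host of the U17 snoRNAs Snora73a and Snora73b, 2.89, Snhg15, the host of Snora9, 2.40 and Snhg12, a host of box H/ACA and box C/D snoRNAs, 2.34. Among neighbours in this order, Gas5 exceeded Snhg3 in 13 of 18 libraries and Snhg3 exceeded Snhg15 in 14. Snhg15 exceeded Snhg12 in 8 of 18 libraries although its median was higher. Snhg6, the host of Snord87, followed at 1.27 CPM per kb, Snhg1, the host of Snord22, at 0.620, Snhg5 at 0.554 and Snhg4, the host of Snora74a, at 0.218. Snhg1 and Snhg5 were not separated (Snhg1 was the higher in 8 of 18 libraries). In counts, Gas5 had 48 to 611 reads per library and Snhg8 73 to 497, whereas Snhg4 had 0 to 36, Snhg5 0 to 61 and Snhg6 5 to 85.

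**Figure D1:**
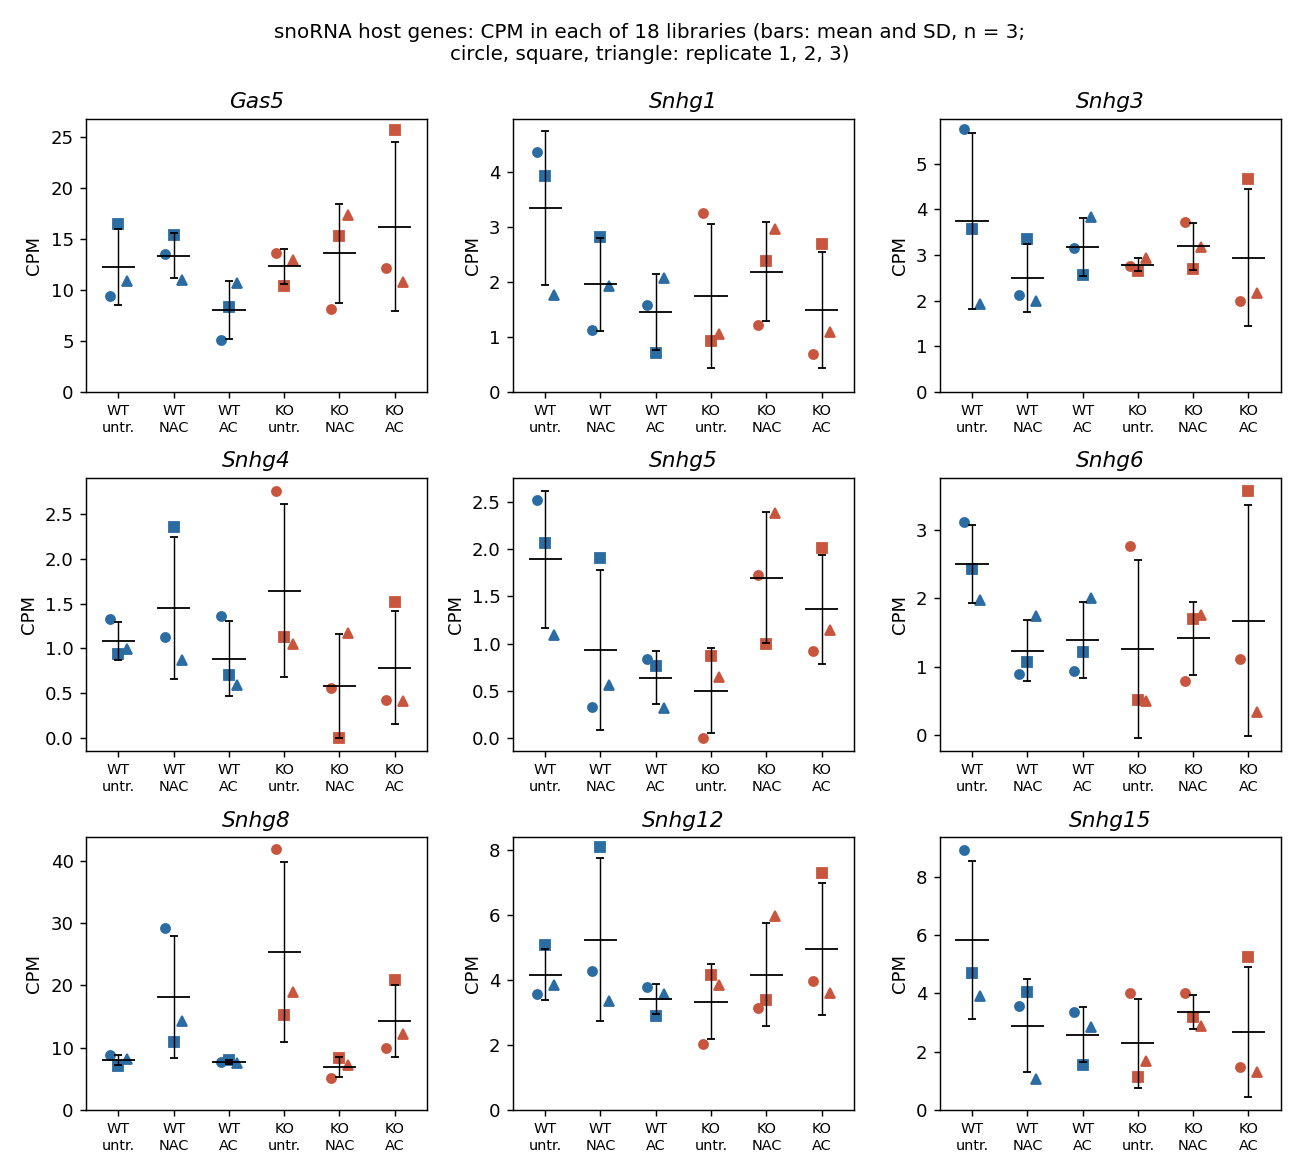
Level of each of the 9 snoRNA host genes in CPM (y axis, each panel with its own scale) in the 6 groups (x axis). Points are the 3 libraries, and the black lines give the mean and SD. Snhg8 was high in HDAC3 KO untreated and WT NAC libraries, and its 3 WT untreated libraries lay between 7.07 and 8.74 CPM.

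Snhg8 (ENSMUSG00000104960, chr3:123507552-123508404 on the reverse strand) also had the largest coefficient of variation of the members. The untreated libraries labelled WT had 8.74, 7.07 and 8.12 CPM, and those labelled HDAC3 KO had 42.0, 15.2 and 19.0 CPM. With NACs the order turned, with 29.2, 10.9 and 14.3 CPM in the libraries labelled WT and 5.17, 8.26 and 7.19 CPM in those labelled HDAC3 KO. With ACs the values were 7.65, 7.99 and 7.45 CPM for WT and 9.88, 20.9 and 12.2 CPM for HDAC3 KO. The genotype labels did not overlap under any of the 3 treatments, but the HDAC3 KO libraries were the higher ones untreated and with ACs and the lower ones with NACs. Across all libraries the coefficient of variation of Snhg8 was 70.0%, and those of the other members ran from 32.9% for Snhg3 to 63.9% for Snhg5. The highest value of Snhg8 came from the library with the fewest counts. The TMM factors behind these CPM were 1.01 to 1.52 in untreated WT and 0.741 to 0.846 in untreated HDAC3 KO libraries. With NACs they were 0.755 to 1.03 and 1.04 to 1.28, and with ACs 1.02 to 1.16 and 0.800 to 1.15. Fits scaled by total counts alone were not run. By the ratio of the highest to the lowest library, Snhg6 (10.6) and Snhg15 (8.46) exceeded Snhg8 (8.12).

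Snhg8 rose in untreated HDAC3 KO libraries relative to untreated WT libraries. Differences were tested with the quasi-likelihood method of edgeR, and p-values were adjusted over all genes tested as Benjamini and Hochberg describe. The log2 fold change was 1.54 (SE 0.457, edgeR adjusted p = 0.0470), from 7.98 ± 0.844 to 25.4 ± 14.5 CPM (SD, n = 3; exact permutation test, two-sided, p = 0.1, the smallest that 3 libraries against 3 allow). It was the only member of 9 called in this comparison, where 11.6% of the 12101 tested genes were called and 3.04% were called as higher. Of the 9 members, 2 did not overlap between the labels (Snhg8 and Snhg5), against 40.9% of all genes tested. The call was lost with any 1 of the 6 libraries left out (adjusted p from 0.0527 to 0.204), and without HDAC3 KO untreated replicate 1, the library with the fewest counts, the log2 fold change was 0.93. A fit with offsets for gene length and GC content gave 2.21 (adjusted p = 0.0892). The call was kept in 3 of 7 alternative fits, among them DESeq2's Wald test (1.66, adjusted p = 0.00661).

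With NACs the log2 fold change of Snhg8 was -1.37 (SE 0.389, unadjusted p = 0.00150, adjusted p = 0.0756; 18.1 ± 9.75 CPM for WT and 6.87 ± 1.57 for HDAC3 KO). No member was called by edgeR with NACs, where 0.864% of 11923 genes were. Of the 9 members, 1 had an unadjusted p under 0.05, against 24.2% of genes. Only Snhg8 of the 9 did not overlap, against 26.9% of genes. Snhg8 was called by DESeq2's Wald test (adjusted p = 0.0380), by edgeR without the low-count filter, and by edgeR without WT NAC replicate 2 (-1.53, adjusted p = 0.00952). It was not called without any other library, where without WT NAC replicate 1 the estimate was -0.81 (adjusted p = 0.363), nor with the offsets (-1.48, adjusted p = 0.153). With ACs Snhg8 had an estimate of 0.86 (SE 0.449, adjusted p = 0.246).

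Whether the difference between the labels was unequal untreated and with NACs was tested over 12 libraries as an interaction, which does not test the change of sign itself. For Snhg8 the estimate was -2.70 (log2, SE 0.628, adjusted p = 0.00373). It passed with each of the 12 libraries left out, from -3.18 to -2.40 with adjusted p from 0.00107 to 0.0156, and under all 7 alternative fits, from -3.57 to -2.68. The background is large in this comparison, since 34.8% of 13005 genes were called and 12.8% were called in the negative direction. Of the 4395 called genes that were tested in both label comparisons, 4383 had estimates of opposite sign untreated and with NACs, so that the opposite signs of Snhg8 are shared by nearly all genes that the interaction, which favours such genes, calls. The second member called was Snhg5, at 2.92 (SE 1.10, adjusted p = 0.0432), in the positive direction, in which 22.1% of genes were called. Its call was lost with any of 10 of the 12 libraries left out (adjusted p up to 0.153) and held only without WT untreated replicate 3 or WT NAC replicate 2 (0.0376 and 0.0127). It was also lost in 6 of 7 alternative fits, where the offsets for GC and length brought it to 1.25 (adjusted p = 0.439). Snhg15 had 2.09 (SE 0.812, adjusted p = 0.05003) and was not called.

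**Figure D2:**
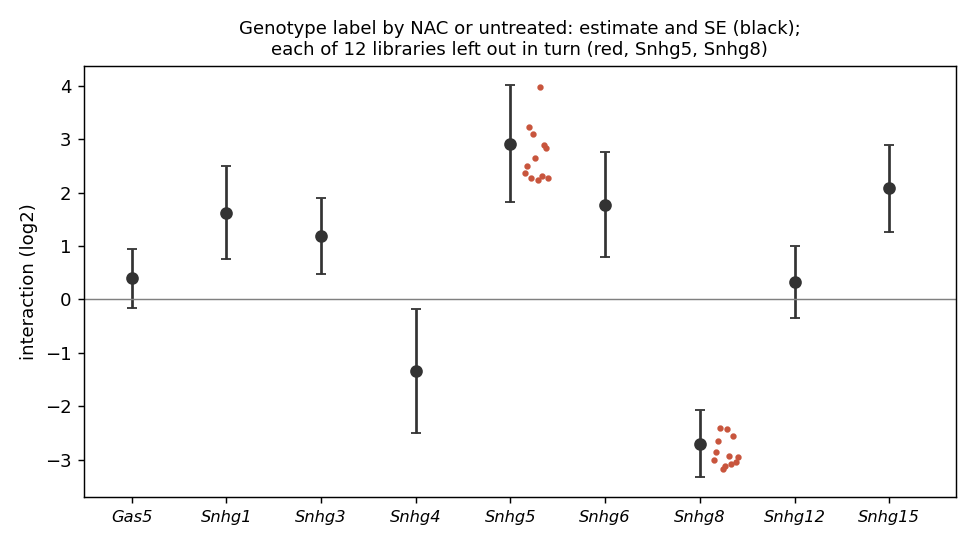
Interaction of label and NAC treatment (y axis, log2 scale) for the 9 host genes (x axis). Black points and bars are the estimate and its SE over 12 libraries, and red points are the estimates with each library left out for Snhg5 (2.24 to 3.98) and Snhg8 (-3.18 to -2.40).

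Snhg5 (ENSMUSG00000097195, chr9:88521050-88522929 on the reverse strand), the host of Snord50a and Snord50b, had estimates of the opposite sign to Snhg8 untreated and with NACs, at a lower level. The untreated WT libraries had 2.52, 2.07 and 1.10 CPM, and the untreated HDAC3 KO libraries had 0, 0.868 and 0.646 CPM, where the 0 came from the library with the fewest counts and allows up to 0.754 CPM. With NACs the values were 0.336, 1.90 and 0.559 CPM for WT and 1.72, 0.995 and 2.38 CPM for HDAC3 KO. With ACs they were 0.838, 0.767 and 0.324 CPM and 0.923, 2.02 and 1.15 CPM. The labels did not overlap untreated, where HDAC3 KO was the lower, nor with ACs, where it was the higher, and they overlapped with NACs. None of the 3 differences was called, at -1.76 untreated (SE 0.805, adjusted p = 0.131), 0.89 with NACs (SE 0.666, adjusted p = 0.381) and 1.05 with ACs (SE 0.734, adjusted p = 0.385). The offsets brought the untreated value of Snhg5 to -0.47, and without WT NAC replicate 2 the value with NACs was 2.01 (adjusted p = 0.0642).

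For Snhg15, Snhg6 and Snhg1 the estimates of the fit without offsets were below 0 in untreated HDAC3 KO libraries, and with the offsets for GC and length they were -1.62, -0.08 and 0.08. Snhg15 (ENSMUSG00000085156, chr11:6525591-6528760, reverse strand) had 8.94, 4.70 and 3.90 CPM in the WT libraries and 4.02, 1.12 and 1.69 CPM in the HDAC3 KO libraries. The edgeR estimate was -1.61 (SE 0.596, adjusted p = 0.0793). HDAC3 KO replicate 1 alone reached into the WT range.

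Snhg6 (ENSMUSG00000098234, chr1:9941959-9944118, reverse strand) had 3.11, 2.43 and 1.98 CPM in the untreated WT libraries and 2.76, 0.511 and 0.497 CPM in those labelled HDAC3 KO, and the estimate was -1.35 (SE 0.769, adjusted p = 0.211). Snhg1 (ENSMUSG00000108414, chr19:8723475-8726443, forward strand) had 4.37, 3.92 and 1.76 CPM and 3.27, 0.919 and 1.04 CPM, with an estimate of -1.22 (SE 0.674, adjusted p = 0.199). In each of these genes the HDAC3 KO library with the most CPM was replicate 1, which had 11 counts of Snhg6 and 13 of Snhg1.

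Leaving out that library changed which members were called. Without HDAC3 KO untreated replicate 1, Snhg15 (-2.23, adjusted p = 0.000613), Snhg6 (-2.47, adjusted p = 0.00278) and Snhg1 (-1.96, adjusted p = 0.00668) were called by edgeR and Snhg8 was not (0.93, adjusted p = 0.0527). The HDAC3 KO arm then held 2 libraries, and 46.3% of 12714 genes were called and 27.0% were called as lower, so that 3 of 9 members is near that share. The interaction with NACs called 4 members without it, Snhg8 (-2.40), Snhg6 (2.55), Snhg15 (2.39) and Snhg1 (2.01), against 46.2% of 13625 genes.

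The interaction was above 0 in 7 of the 9 members and below 0 in Snhg8 and Snhg4, with a median of 1.18 beside 0.12 over all genes tested. This direction of the set turned with the offsets for GC and length, where 3 members (Snhg15, Snhg5 and Snhg6) were above 0 and the median was -0.48 beside -0.08. For Snhg4 (ENSMUSG00000097769, chromosome 18, forward strand) it was -1.34. Snhg4 had 0 to 2.76 CPM and overlapped between the labels under all 3 treatments, at a log2 fold change of 0.40 untreated (SE 0.684, adjusted p = 0.684), -1.16 with NACs (SE 0.774, adjusted p = 0.328) and -0.16 with ACs (SE 0.790, adjusted p = 0.922). The offsets brought its untreated value to 1.38 (adjusted p = 0.309). With single libraries left out its value with NACs ran from -2.09 to -0.52.

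Gas5 (ENSMUSG00000053332, chr1:161034422-161038539, forward strand), which carries the most snoRNA genes of the set, was among the least variable members (coefficient of variation 36.0%). Untreated, the libraries labelled WT had 9.41, 16.4 and 10.9 CPM and those labelled HDAC3 KO had 13.6, 10.4 and 12.9 CPM. With NACs they had 13.5, 15.4 and 11.0 CPM and 8.10, 15.2 and 17.3 CPM. The labels overlapped in both. With ACs the WT libraries had 5.03, 8.31 and 10.7 CPM and the HDAC3 KO libraries 12.1, 25.7 and 10.7 CPM, and the groups were just separate (10.70 against 10.74 CPM at the boundary). With ACs the edgeR estimate was 0.99 (SE 0.481, adjusted p = 0.214), and without HDAC3 KO AC replicate 2, the highest library, it was 0.49. Untreated it was -0.12 (SE 0.414, adjusted p = 0.851) and with NACs 0.05 (SE 0.361, adjusted p = 0.937), and the offsets for GC and length turned these to 1.22 and -0.51.

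Snhg12 (ENSMUSG00000086290, chr4:132308678-132311024, forward strand) had 2.01 to 8.08 CPM over the 18 libraries and overlapped between the labels under each treatment. Its log2 fold change was -0.38 untreated (SE 0.502, adjusted p = 0.595), -0.30 with NACs (SE 0.451, adjusted p = 0.675) and 0.51 with ACs (SE 0.505, adjusted p = 0.553). Snhg3 (ENSMUSG00000085241, chr4:132348014-132353686, reverse strand) lies on the same chromosome as Snhg12 and was the least variable member, at 1.92 to 5.76 CPM. Its log2 fold changes were -0.55, 0.39 and -0.13 (SE 0.555, 0.485 and 0.549, adjusted p = 0.476, 0.601 and 0.903). The offsets for GC and length brought them to 1.05, 0.155 and 0.69. Of its exon bases, 71.5% are shared with Gm17300 on the opposite strand and 13.7% with Rcc1 on the same strand, and the strand setting of the counting is not given in the sources used here, so its level is uncertain.

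With ACs no member was called between the genotype labels by edgeR, and no member had an unadjusted p under 0.05, against 24.3% of genes. The fit with the offsets and the replicate block, however, called Gas5 (1.44, adjusted p = 0.0426). In this comparison 3.75% of 12304 genes were called. Gas5, Snhg5 and Snhg8 did not overlap between the labels, 3 of 9 members against 28.3% of genes. DESeq2's Wald test called 1365 genes and no member. For Snhg1, Snhg6 and Snhg15 the log2 fold changes were 0.03, 0.27 and 0.05 with ACs (SE 0.705, 0.757 and 0.635, adjusted p from 0.850 to 0.982) and 0.17, 0.19 and 0.26 with NACs (SE 0.559, 0.618 and 0.510, adjusted p from 0.746 to 0.858). Over all 18 libraries with treatment as a term, the log2 fold changes of the 9 members ran from -0.34 (Snhg15) to 0.45 (Snhg8, SE 0.387, adjusted p = 0.613), with a median of -0.04 beside 0.03 for all genes, and 0 members and 0 of 12818 genes were called. DESeq2's Wald test called 0 members and 112 genes there, and 1848 genes and no member had an unadjusted p under 0.05 in the quasi-likelihood test. In that fit Gas5 had 0.36 (SE 0.275), Snhg1 -0.26 (SE 0.402), Snhg3 -0.04 (SE 0.303), Snhg4 -0.27 (SE 0.496), Snhg5 0.15 (SE 0.527), Snhg6 -0.19 (SE 0.456), Snhg12 -0.01 (SE 0.294) and Snhg15 -0.34 (SE 0.403), with adjusted p from 0.562 to 0.995.

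**Figure D3:**
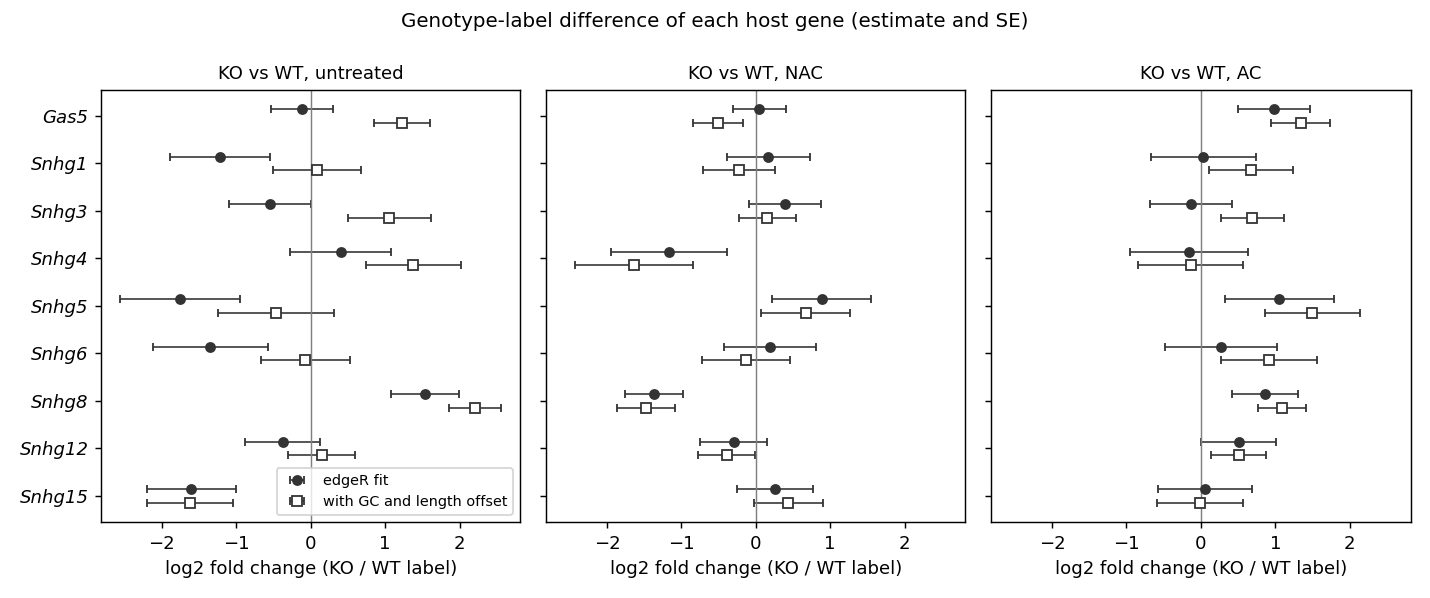
Log2 fold change between libraries labelled HDAC3 KO and WT (x axis, with SE bars) for the 9 host genes (y axis) untreated, with NACs and with ACs. Filled circles are the edgeR fit and open squares the same fit with offsets for GC and length. Snhg8 lay at 1.54, -1.37 and 0.86 and kept its sign with the offsets, where Gas5 untreated went from -0.12 to 1.22.

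The treatments were compared within each genotype label, and these comparisons share libraries with those above. NACs against no treatment gave Snhg8 a log2 fold change of 1.11 in WT libraries (SE 0.402, adjusted p = 0.0593), with the NAC libraries above all untreated ones, and -1.73 in HDAC3 KO libraries (SE 0.466, adjusted p = 0.0531), with the NAC libraries below them. In neither was a member called by edgeR, where 8.52% and 6.54% of genes were. Of the 9 members, 2 did not overlap in WT libraries (Snhg8 and Snhg6) against 29.7% of genes, and 2 in HDAC3 KO libraries (Snhg8 and Snhg5) against 38.7%. In each, 2 of the 9 members had an unadjusted p under 0.05, against 33.2% of genes in WT and 30.4% in HDAC3 KO libraries. DESeq2's Wald test called Snhg8 in both (1.19, adjusted p = 0.0411, and -1.87, adjusted p = 0.00378). Snhg8 was also called in WT libraries with DESeq2 size factors. In HDAC3 KO libraries it was also called without the low-count filter and in the single fit of all 18 libraries. Without WT NAC replicate 1 the WT value was 0.56 (adjusted p = 0.449), and without HDAC3 KO untreated replicate 1 the HDAC3 KO value was -1.17 (adjusted p = 0.0172). Over the 9 members the log2 fold changes ran from -1.10 to 1.11 in WT libraries, with a median of -0.66 beside -0.10 for all genes, and from -1.73 to 1.73 in HDAC3 KO libraries, with a median of 0.48 beside -0.03. With the offsets the median in HDAC3 KO libraries turned to -0.52 beside -0.07, with 2 of 9 members above 0 instead of 7, and that in WT libraries was -0.0002 beside 0.01.

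ACs against no treatment gave all 9 members a fitted value below 0 in WT libraries, from -1.66 (Snhg5) to -0.14 (Snhg8), with a median of -0.72 beside -0.11 for all genes tested. With the offsets Snhg3 (0.31) and Snhg8 (0.26) were above 0, and the median was -0.11 beside -0.02. None was called by edgeR and 0 of 12199 genes were, with 3 members and 1551 genes at an unadjusted p under 0.05. With DESeq2 0 members and 4 genes were called. The AC libraries of Snhg15 and Snhg5 did not overlap the untreated ones, 2 of 9 members against 15.5% of genes. The member with the lowest p was Snhg15 at -1.28 (adjusted p = 0.393), and its 3 AC libraries, at 3.35, 1.53 and 2.85 CPM, were all below its untreated ones. In HDAC3 KO libraries 7 of the 9 were above 0, with a median of 0.46 beside 0.10, and with the offsets 5 were, with a median of 0.02 beside -0.05. The lowest p was that of Snhg5, at 1.36 (adjusted p = 0.430). None was called by edgeR, with 0 members and 1761 genes at an unadjusted p under 0.05, and DESeq2 called 0 members and 13 genes. Snhg5 alone of the 9 did not overlap, against 21.5% of genes. The interaction of label and AC treatment called 0 of 13225 genes, and had the lowest p for Snhg5, at 2.77 (adjusted p = 0.149). There 1 member and 3187 genes had an unadjusted p under 0.05, and DESeq2's Wald test called 0 members and 1249 genes.

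ACs against NACs gave Snhg8 -1.19 in WT libraries (adjusted p = 0.898) and 1.09 in HDAC3 KO libraries (SE 0.420, adjusted p = 0.104, both edgeR), and the treatments did not overlap in either label. Gas5 and Snhg8 did not overlap in WT libraries, 2 of 9 members against 10.4% of genes, and Snhg8 alone in HDAC3 KO libraries, against 29.3%. No member was called by edgeR in either, and DESeq2's Wald test called none. In each, 1 of the 9 members had an unadjusted p under 0.05, against 4.16% of genes in WT and 25.3% in HDAC3 KO libraries. With the offsets Snhg8 was called in HDAC3 KO libraries (1.34, adjusted p = 0.0312). Among all genes, 0% were called in WT and 7.38% in HDAC3 KO libraries. The interaction was 2.30 for Snhg8 (SE 0.584, unadjusted p = 0.000786, adjusted p = 0.0624), where 0.0765% of 13076 genes were called. It was called by DESeq2's Wald test (adjusted p = 0.0100), by the fit with no filter (0.0162) and with the offsets for GC and length (0.0259), and without WT NAC replicate 2 (0.0264) or without HDAC3 KO AC replicate 2 (0.0479). Without each of the other 10 libraries it was not called, and without WT NAC replicate 1 it was 1.76 (adjusted p = 0.203).

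Over the 18 libraries the levels of most members were positively correlated, and Snhg8 had the lowest median r, a rank it did not keep within groups. Snhg1 and Snhg6 had a Pearson r of 0.78 on log2(CPM + 1), Snhg1 and Snhg15 0.74, Snhg3 and Snhg15 0.71, and Snhg5 and Snhg12 0.64. The median r of Snhg8 with the other members was -0.05, from -0.55 with Snhg5 to 0.51 with Snhg4, and the medians of the other members were 0.26 to 0.42. With the group means removed, Snhg8 had an r of -0.45 with Snhg5, 0.60 with Snhg6 and 0.55 with Snhg15. Its median was then 0.34, and the lowest was that of Snhg5 at 0.20. These values describe 18 libraries that share depth and composition, and they carry no test.

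**Figure D4:**
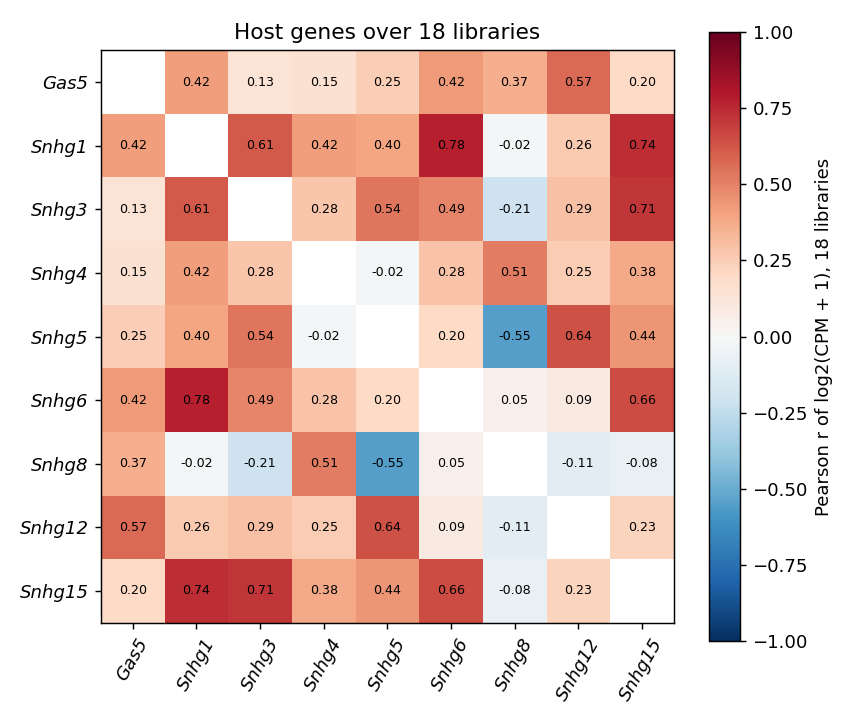
Pearson r of log2(CPM + 1) between each pair of the 9 host genes over 18 libraries (color scale from -1 to 1, value in each cell). Snhg1, Snhg3, Snhg6 and Snhg15 form a block of 0.49 to 0.78, and Snhg8 with Snhg5 is the lowest cell at -0.55.

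The genes outside the set whose log2 CPM was most like that of a member were ranked among 13653 others. For Snhg8 they were Rbm8a, a core protein of the exon junction complex (r = 0.95), and the small-subunit ribosomal proteins Rps9 (0.94) and Rpsa (0.94). For Snhg15 they were Mtln, Rps23 and Serf1 (0.88 to 0.90), and for Snhg5 they were Parp2, Bpnt1 and Taf1a (0.87 to 0.90). Snhg6 was closest to Naa30, Sltm and Rala (0.87 to 0.88), and Snhg1 to Ssb, which encodes the La protein, Srsf5 and Tctex1d2 (0.86 to 0.87). Snhg12 was closest to Med30, Scp2 and Foxd2os (0.80 to 0.83), Snhg4 to Chadl and the ribosomal protein pseudogenes Rps19-ps3 and Rps13-ps2 (0.76 to 0.81), Gas5 to Dhrs4, Bloc1s4 and Gm7658 (0.74 to 0.78), and Snhg3 to Znrf2, Iqcc and Ube2q2 (0.73 to 0.74).

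The rest of the snoRNA pathway was read from lists of genes in the comparison of untreated HDAC3 KO and WT libraries and in the interaction with NACs. Of the 6 other Snhg symbols, 2 and 3 were tested and none was called. The members with the most reads among them were Snhg17, at 0.769 to 4.03 CPM, and Snhg20, at 1.55 to 13.8 CPM. Among the 8 core proteins of snoRNA particles, none was called untreated (median 0.30) and 1 was in the interaction, where Fbl, the methyltransferase of box C/D particles, had -1.59 (adjusted p = 0.0130). Of the 8 assembly factors, 2 fell in untreated HDAC3 KO libraries, Nufip1 (-2.42, adjusted p = 0.0183) and Znhit3 (-1.44, adjusted p = 0.0426), both of which act in box C/D particle assembly, and the same pair passed in the interaction at 3.36 (adjusted p = 0.00106) and 1.85 (adjusted p = 0.0178). Both untreated calls were lost with the offsets for GC and length. They were also lost without WT untreated replicate 2, WT untreated replicate 3 or HDAC3 KO untreated replicate 3.

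Among the nonsense-mediated decay factors reported here, Smg9 was called untreated (1.32, adjusted p = 0.0498). Those called in the interaction included Smg1, the kinase of the decay complex, at 2.56 (adjusted p = 0.00506), Smg9 at -1.73 (0.0139), Smg5 at -1.62 (0.0225) and Rbm8a at -1.51 (0.0287). Of the 78 cytosolic ribosomal protein genes tested, 4 rose and 8 fell untreated (median -0.11), and 12 were above and 15 below 0 among those called in the interaction (median 0.07). Of the 13 translation factors whose mRNAs begin with a pyrimidine tract, 2 rose and 1 fell untreated, and 5 were called in each direction in the interaction. Of the 183 and 185 protein-coding snoRNA hosts tested, 5 rose and 18 fell untreated (median -0.36 beside 0.06 over all genes), and 60 and 15 passed above and below 0 in the interaction (median 0.96 beside 0.12). Of the 11 genes of mTOR signalling and its control of translation, none was called untreated and Rheb, the activator of mTOR, was in the interaction (1.92, adjusted p = 0.00899). The background percentages of both comparisons are those given above. The untreated comparison called 0 genes with the offsets for GC and length, and 0 without WT untreated replicate 2, WT untreated replicate 3 or HDAC3 KO untreated replicate 3, so that the untreated calls of this and the next paragraph were lost there.

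Marker genes of other cells moved with some of these groups. The summed CPM of 6 B cell markers was 7.48 to 27.3 in untreated WT and 19.1 to 35.9 in untreated HDAC3 KO libraries, with Cd79a (-3.98, adjusted p = 0.0328) and Cd79b (-2.65, adjusted p = 0.00896) called in the interaction with NACs. Plk1 and Ube2c of the 8 proliferation genes were called there too (-3.19 and -2.38, adjusted p = 0.00436 and 0.0195). Plk1 was also called higher in untreated HDAC3 KO than WT libraries (1.92, adjusted p = 0.0348), and both genes were called higher with NACs than untreated in WT libraries (1.96 for Plk1 and 1.59 for Ube2c) and with ACs than NACs in HDAC3 KO libraries (1.61 and 1.43). With NACs against untreated, 1 of 3 B cell markers tested was called higher in WT libraries (median 1.63). In HDAC3 KO libraries 2 of 9 macrophage markers were (median -0.22). Among the macrophage markers, Lyz2 is the locus from which the Cre of M-HDAC3-/- mice is driven. Its counts may therefore differ between the labels whatever the macrophage content, which was not tested. Of the 9 macrophage markers, Lyz2 (-1.94, adjusted p = 0.0425) and Ptprc (-1.65, adjusted p = 0.0364) fell in untreated HDAC3 KO libraries. In the interaction with NACs 4 of the 9 were called, Lyz2 (3.39), Ptprc (2.80) and Itgam (1.95) above 0 and Cd14 (-1.82) below (adjusted p from 0.00147 to 0.0181), and so was Ltf of the granulocyte markers (-1.85, adjusted p = 0.0267). The 10 granulocyte markers summed to 236 to 1398 CPM untreated in WT and 474 to 1224 CPM in HDAC3 KO libraries, and 6 fibroblast markers to 4.31 to 91.3 and 67.6 to 102 CPM. With ACs against NACs in HDAC3 KO libraries, all 5 fibroblast markers tested were above 0 (median 2.26), of which Col1a2 and Col3a1 were called (adjusted p = 0.0251 and 0.0162), as was Ltf of the granulocyte markers (1.37, adjusted p = 0.0382). The fibroblast markers summed there to 7.22 to 42.7 CPM with NACs and to 75.6 to 222 CPM with ACs. The 6 dendritic cell markers reached at most 2.85 CPM, and the 6 genes of erythroid and K562 cells 44.4 CPM, with 1 of them at 0 in all libraries. The share of counts in the 50 most abundant genes was 27.2% to 37.1% in untreated WT and 31.6% to 41.4% in untreated HDAC3 KO libraries, and over the 18 libraries this share had an r of 0.57 with Snhg8. Of 6 nuclear and structured noncoding RNAs tested between the labels, 0 were called untreated. With NACs 2 were called lower in HDAC3 KO libraries (median -1.21), and with ACs 1 was (median -1.23). In the interaction with NACs 1 of 7 was called above 0 (median -1.16). Malat1, a nuclear RNA, had an r of 0.68 with Snhg6 and 0.63 with Snhg1, the summed ribosomal protein level one of 0.55 with Snhg15, and Rpph1 plus Rmrp one of -0.50 with Snhg5. The r of the 9 members with the other library measures examined lay between -0.48 and 0.47. Among these, the mitochondrial share of counts did not overlap between the labels under any treatment. It was 0.50% to 0.62% in untreated WT and 0.27% to 0.43% in untreated HDAC3 KO libraries. With NACs it was 0.29% to 0.40% and 0.41% to 0.58%, and with ACs 0.34% to 0.48% and 0.49% to 1.19%. Its r was -0.32 with Snhg8 and 0.35 with Snhg5. The part of these markers and measures in the differences of the host genes was not tested, and in bulk RNA fewer cells of a type and less RNA per cell cannot be told apart.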

How the data were processed

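RNA of BMDMs was sequenced in 18 libraries. The deposited values are whole counts of reads per gene that the authors had made without normalization. The submitters' processing notes name Trimmomatic 0.36, STAR 2.5.2b, featureCounts of Subread 1.5.2 and GRCm38. The annotation release and strand setting are not given in the sources used here, and a wrong strand or shared exons would move a gene's count. Start and end of 44858 of 49056 named genes equal those of GENCODE M21.

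The libraries of each comparison were fitted separately with edgeR 4.0.16 in R 4.3.3 (filterByExpr with a minimum count of 10 and total of 15, TMM factors, glmQLFit with robust dispersions, glmQLFTest, Benjamini-Hochberg threshold 0.05 over all genes tested). Levels are CPM with TMM factors over all libraries. Exact permutation tests used log2(CPM + 1). Alternatives were DESeq2 size factors, the Wald test of DESeq2 1.42.0, no filter, a single fit of all 18 libraries, blocking by replicate number, offsets for GC and length (mgcv 1.9.3), the offsets with the block, and each library left out. Fits were tested on simulated data.

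The members and lists were chosen with earlier results of these data known. All 9 members were to be named, with every genotype comparison tested; other comparisons named members with adjusted p under 0.05 or the lowest p, and for each member the 3 genes of highest Pearson r of log2 CPM (prior count 2) were named. A limit for 0 counts is 3 counts in that library and covers counting error only. Depth ran from 4704491 to 26421267 counts. One gene of the decay factor list is not reported here.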

Additional observations from a re-analysis of the deposited data

Results flagged for a closer look

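The difference of Snhg8 between the genotype labels was unequal untreated and with NACs. Its interaction between label and NAC treatment was -2.70 on the log2 scale (edgeR adjusted p = 0.00373), and the labels separated in opposite directions at 1.54 untreated, -1.37 with NACs and 0.86 with ACs. That interaction called 34.8% of genes. The labels did not overlap in 40.9% of genes untreated, 26.9% with NACs and 28.3% with ACs. Only the untreated difference of Snhg8 was called by edgeR (adjusted p = 0.0470), and this call was lost with any library left out. The difference between NACs and ACs had an interaction of 2.30 (edgeR adjusted p = 0.0624).

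Snhg5 had an interaction of 2.92 between label and NAC treatment (edgeR adjusted p = 0.0432), a call that was lost with 10 of 12 single libraries left out and in 6 of 7 alternative fits, and the labels separated at -1.76 untreated and 1.05 with ACs. Neither of these label differences was called, and the labels did not overlap in 40.9% and 28.3% of genes there. The offsets for GC and length brought the interaction to 1.25 and the untreated value to -0.47. The pair of untreated and AC values was tested as an interaction of 2.77 (edgeR adjusted p = 0.149). Groups of 3 libraries were not tested for single outlying values.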

How the results depend on the processing

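The direction of the Snhg8 genotype difference, untreated, with NACs and with ACs, and of its interaction with NAC treatment held under all 7 alternatives and with every library left out, and the interaction with NAC treatment was called each time. Among all genes, that interaction called 853 to 5560 over the 7 alternatives, which is the background of every member count given for it below. Of 313 log2 fold changes of named members under these alternatives, 256 kept their direction and side of the threshold, 33 changed sign, 10 lost a call and 14 gained one. Of 408 with a library left out these numbers were 349, 35, 16 and 8. Apart from fewer libraries or genes in a fit, the cause of these changes was not tested. In the interaction with NAC treatment the median of all genes moved from 0.12 to -0.60 with DESeq2's Wald test, where the median of the members was 0.79. Low counts limit Snhg4, Snhg5 and Snhg6 most.

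Whether same-numbered libraries came from the same animal is not given in the sources used here, and correlations between them cannot decide it. In 1 of 15 pairs of groups every same-numbered pair of libraries had an r over 0.1 (range over all pairs -0.33 to 0.49). With the replicate block 0 members were called between the labels untreated, and 2 in the interaction with NAC treatment. All genes called with the block numbered 933 untreated, 236 with NACs, 1 for ACs against NACs in WT, 44 for ACs against untreated in WT, 1772 and 0 for NACs against untreated in WT and HDAC3 KO, 1427 for ACs against NACs in HDAC3 KO and 155 in the interaction of ACs and NACs. With ACs the block turned Snhg1 to -0.14, Snhg6 to -0.14 and Snhg15 to -0.27.

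Without the low-count filter 0 members were called untreated, and 1 member (Snhg8) each with NACs, for NACs against untreated in HDAC3 KO, in the interaction of ACs and NACs and in that of NACs and untreated. All genes called then numbered 575 with NACs, 728 with ACs, 38 over all treatments, 47 and 13 for ACs against NACs and untreated in WT, 454 and 1479 for NACs against untreated in WT and HDAC3 KO, 30 for ACs against untreated in HDAC3 KO, and 537 and 140 in the interactions of ACs with NACs and with untreated. Snhg12 over all treatments was 0.0018.

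With offsets for GC and length 0 members were called untreated, with or without the block, and 1 member (Snhg8) each for ACs against NACs in HDAC3 KO and in the interactions of ACs and NACs and of NACs and untreated. With offsets and block Gas5 was called with ACs, as 1 member. All genes called with the offsets numbered 0 untreated, 1 with NACs, 1220 with ACs, 1 over all treatments, 0 for NACs against untreated in either label, 257 in the interaction of ACs and NACs and 1223 in that of NACs and untreated. Offsets and block gave 0 untreated, 5 with NACs, 1 for ACs against NACs and 86 for ACs against untreated in WT, 22 and 0 for NACs against untreated in WT and HDAC3 KO, and 155 and 853 in those interactions. The offsets, without and with the block, turned Gas5 to 1.22 and 1.175, Snhg1 to 0.084 and 0.0895, Snhg3 to 1.05 and 0.98 and Snhg12 to 0.15 and 0.062 untreated. With NACs they turned Gas5 to -0.51 and -0.53, Snhg1 to -0.23 and -0.24 and Snhg6 to -0.14 and -0.065. With ACs they turned Snhg3 to 0.69 and 0.74 and Snhg15 to -0.016 and -0.26. Over all treatments they turned Snhg1 to 0.18 and 0.15, Snhg3 to 0.64 and 0.60, Snhg6 to 0.26 and 0.24 and Snhg12 to 0.10 and 0.087.

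DESeq2's Wald test called 1 member (Snhg8) each untreated, with NACs, for NACs against untreated in either label and in the interactions of ACs and NACs and of NACs and untreated. It called 3299 genes untreated, 469 with NACs, 1365 with ACs, 112 over all treatments, 4 for ACs against untreated in WT, 1630 and 2063 for NACs against untreated in WT and HDAC3 KO, 1396 and 13 for ACs against NACs and untreated in HDAC3 KO, and 741 and 1249 in the interactions of ACs with NACs and with untreated. DESeq2 size factors called 1 member (Snhg8) for NACs against untreated in WT and 1 in the interaction with NAC treatment. In these comparisons the edgeR fit of the Results called 8.52% and 34.8% of genes. The size factors called 0 genes for NACs against untreated in HDAC3 KO and 38 in the interaction of ACs and NACs. One fit of all 18 libraries called 1 member (Snhg8) for NACs against untreated in HDAC3 KO and in the interaction with NAC treatment, with 3308 genes untreated, 0 with NACs, 0 for NACs against untreated in WT, 252 for ACs against NACs in HDAC3 KO and 3 in the interaction of ACs and NACs. Gas5 untreated was 0.022 with DESeq2 size factors, 0.011 with the Wald test and 0.0002 in the fit of all libraries.

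With single libraries left out, 0 to 3 members were called untreated, 0 to 1 with NACs, 0 to 2 for NACs against untreated in either label, 0 to 1 in the interaction of ACs and NACs and 1 to 4 in that of NACs and untreated. The highest of these counts came without HDAC3 KO untreated replicate 1 or without WT NAC replicate 2, and that of ACs and NACs also without HDAC3 KO AC replicate 2. All genes called ranged from 0 to 5887 untreated, 0 to 3121 with NACs, 0 to 1693 with ACs, 0 to 223 over all treatments, 0 to 1 for ACs against NACs and 21 to 4232 for NACs against untreated in WT, 0 to 3013, 0 to 16 and 0 to 4441 for ACs against NACs, ACs against untreated and NACs against untreated in HDAC3 KO, and 0 to 826 and 0 to 1100 in the interactions of ACs with NACs and with untreated. In the interaction of NACs and untreated the range was 3043 to 6297 genes. Log2 fold changes that crossed 0 untreated were Gas5 (-0.32 to 0.20) and Snhg4 (-0.16 to 0.68). With NACs they were Gas5 (-0.18 to 0.31), Snhg1 (-0.14 to 0.61), Snhg6 (-0.023 to 0.57), Snhg12 (-0.66 to 0.28) and Snhg15 (-0.11 to 0.72). With ACs they were Snhg1 (-0.73 to 0.39), Snhg3 (-0.63 to 0.11), Snhg4 (-1.07 to 0.28), Snhg6 (-0.92 to 0.76) and Snhg15 (-0.92 to 0.41), each lowest without HDAC3 KO AC replicate 2. Over all treatments they were Snhg3 (-0.20 to 0.092), Snhg5 (-0.088 to 0.36), Snhg6 (-0.59 to 0.0067) and Snhg12 (-0.16 to 0.13). None of these crossing values was called with a library left out.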
